A study of Homo sapiens with 12 samples.

Results

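The genes followed here belong to the IL6 cytokine family and its signalling chain, in sunitinib-resistant and parental clear cell renal cell carcinoma (ccRCC) cells. The 10 genes were chosen by symbol, for their role in the pathway: the ligands IL6, LIF and IL11, the receptor chains IL6R, IL6ST, OSMR and LIFR, the kinase JAK1, the transcription factor STAT3 and its inhibitor SOCS3. They are 10 of the 45478 genes in the count table, and all 10 were among the 19929 genes with enough reads to be tested.

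IL6 family cytokines bind a receptor chain of their own and then recruit the shared signalling chain gp130, the product of IL6ST. The kinase JAK1, bound to the inside of the receptor, phosphorylates STAT3, which enters the nucleus and switches on target genes, among them SOCS3, whose product turns the receptor off again. In kidney cancer cells the family is known as a source of inflammatory and growth signals, and IL6 is often secreted by the tumour cells themselves.

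mRNA libraries were made from 2 established human ccRCC lines, 786-O and A498, and from a resistant culture recorded as raised from each in sunitinib, an inhibitor of several receptor tyrosine kinases. The groups labelled as Sunitinib-resistant 786-O and A498 are called 786-O-Su (the study's short name leaves out the O) and A498-Su here. They were selected at 4 µM and 2 µM sunitinib, respectively, over 4 months or more than 20 passages, and the parental groups were not selected. All 4 groups grew in the same serum-supplemented high-glucose medium, to which sunitinib was added throughout selection for the resistant cultures. Every sample title carries the tag veh, which is not explained. None is labelled as treated at harvest, and the methods do not say whether sunitinib was still present then. Each group holds 3 libraries with 20042519 to 47972092 counts each. Each resistant line is a single selected culture, and since nothing says that the 3 libraries of a group came from separate cultures, the p-values measure only the spread between these libraries. The batch labels differ from group to group, so batch and group cannot be told apart. In cultures measured in bulk, fewer cells expressing a gene cannot be told apart from less RNA in each cell.

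The identity of the libraries labelled A498-Su needed a check before any change was read from them. Over the 19929 genes their log2 values correlated with those of A498 at a median of 0.87 and with those of 786-O at 0.951, and the parental lines correlated with each other at 0.868. Their highest correlation was with 786-O-Su, at 0.982, above that of 786-O-Su with 786-O, at 0.954. Of 62 genes with at least 10 CPM (counts scaled to a TMM-normalized library size) in A498 and at most 3 counts in each library of 786-O, the libraries labelled A498-Su held a median of 0.362% of the A498 level. Of 33 genes with the reverse pattern they held 94.6% of the 786-O level. These libraries therefore stood closer to 786-O than to A498 and closest to 786-O-Su, and each of their values is given below against both parental lines. Where the resistant groups hold like values, this likeness over all genes stands beside them, and its part in those results was not tested. Renal markers were present in every group (7 or 8 of 8 at 1 CPM or more, with CA9 at that level in A498 alone). Of the markers of other cell types, none of 7 for T cells reached a mean of 1 CPM in any group. Of 7 myeloid markers ITGAM did so in A498 (2.46 CPM) and CSF1R in 786-O (1.90 CPM), and of 5 endothelial markers TEK in A498 (2.23 CPM) and ESAM in every group but 786-O (0.745 to 2.36 CPM over the groups). The 5 fibroblast markers summed to 50.6 to 62.1 CPM in A498, 19.1 to 21.5 in A498-Su, 6.47 to 6.89 in 786-O and 10.2 to 11.4 in 786-O-Su. Among them COL1A1 averaged 55.4 CPM in A498 and 2.25 to 3.70 CPM elsewhere, and LUM averaged 0.0219 CPM in A498, 4.45 in 786-O, 7.42 in 786-O-Su and 16.2 in A498-Su. The part of these genes in the results was not tested. One library, 786-O-Su replicate 2, stood apart from its group: its log2 values deviated from the mean of the other libraries of 786-O-Su with an SD of 0.286, where the others differed from each other with an SD of 0.114.

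In 786-O-Su against 786-O, IL6, IL6R and STAT3 were higher while LIF, IL11, IL6ST and JAK1 were lower, so the ligands and the receptor chains each moved in both directions. Tested with edgeR's quasi-likelihood model (Benjamini-Hochberg adjusted over all genes), 4 of the 10 genes were higher and 5 lower at an adjusted p under 0.05. With 68.5% of all tested genes called in this comparison (35.0% higher and 33.5% lower), a high count was not particular to these genes, and 9 of the 10 had libraries that did not overlap, against 68.9% of all genes. Scaling by library size in place of TMM moved the median of all genes to 0.18 here and to 0.15 in A498-Su against 786-O, and the share of calls that were higher from 51.1% to 62.5% and from 49.6% to 62.6%. The median log2 fold change of the 10 genes was -0.17, beside 0.03 for all genes tested. Without 786-O-Su replicate 2 the count was again 9, but OSMR left the called genes and SOCS3 entered them.

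In the libraries labelled A498-Su, 3 of the 10 genes were higher and 6 lower than in A498, where 72.7% of all genes were called (36.3% higher and 36.4% lower), and 9 had libraries that did not overlap, against 78.5% of all genes. Against 786-O, 3 were higher and 4 lower, beside 63.6% of all genes (31.6% higher and 32.1% lower), and 7 did not overlap, against 73.4%. Only 4 of the 10 genes moved the same way against both parental lines: IL6, LIF and JAK1 were lower and OSMR was higher. STAT3 and IL11 changed sign with the parental line chosen. The remaining 4, IL6R, IL6ST, LIFR and SOCS3, passed the test against one parental line and not the other.

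**Figure D1:**
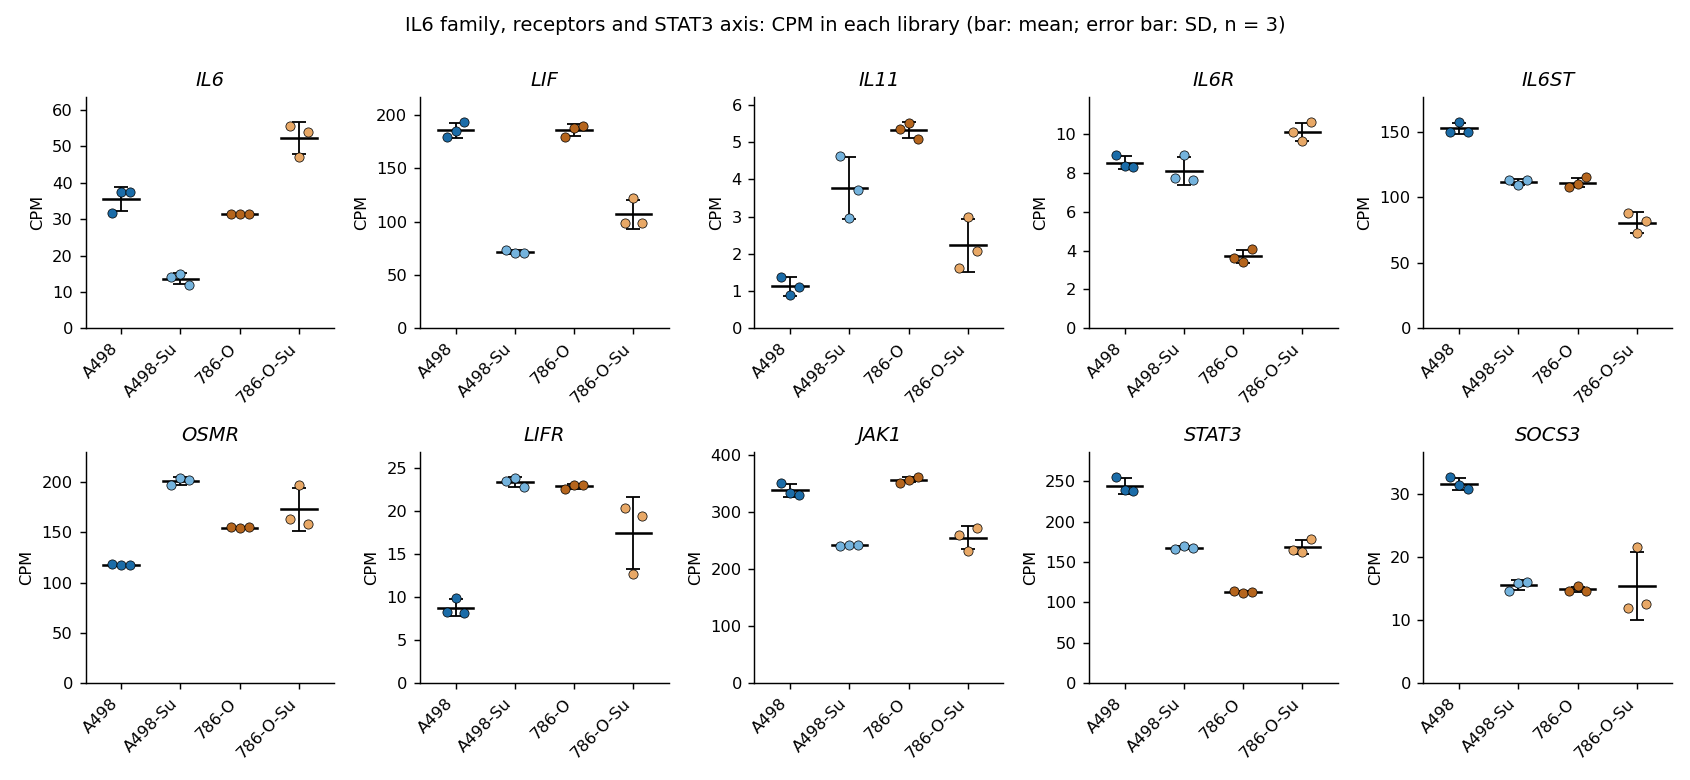
CPM of each of the 10 genes in the 12 libraries, with the group on the horizontal axis, 1 point per library, a bar at the mean and an error bar of 1 SD (n = 3). IL6 was highest in 786-O-Su (47.2 to 55.5 CPM) and lowest in A498-Su (11.9 to 14.9 CPM), and the point that stands apart in the 786-O-Su panels of SOCS3 (21.7 CPM) and LIFR (12.7 CPM) is replicate 2.

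IL6, the founding member of the family and a driver of acute phase responses, separated all 4 groups. It was counted at 31.4, 31.3 and 31.4 CPM in the 3 libraries of 786-O and at 55.5, 47.2 and 53.9 CPM in those of 786-O-Su. In A498 the libraries held 31.6, 37.4 and 37.4 CPM, and those labelled A498-Su held 14, 14.9 and 11.9 CPM. The order from high to low was 786-O-Su, A498, 786-O and A498-Su, with no overlap between neighbours and a 3.84-fold range of group means. The log2 fold change was 0.74 ± 0.08 (SE) in 786-O-Su against 786-O (adjusted p = 1.3e-06). For the libraries labelled A498-Su it was -1.38 ± 0.09 against A498 (adjusted p = 2.8e-09) and -1.21 ± 0.09 against 786-O (adjusted p = 2.3e-08). The resistant cultures thus lay on opposite sides of both parental lines, 3.85-fold apart (adjusted p = 4.7e-09). The parental lines were not called different (log2 fold change of 786-O over A498 -0.18, 95% interval -0.35 to 0.00, adjusted p = 0.071), although 8 other settings and leaving out A498 replicate 1 (-0.25, adjusted p = 0.018) or 786-O-Su replicate 2 (-0.16, adjusted p = 0.012) called it.

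LIF, which signals through a pair of LIFR and gp130 and is best known for holding stem cells undifferentiated, was lower in both resistant cultures. Its libraries held 179, 185 and 193 CPM in A498, 179, 188 and 190 CPM in 786-O, 99.1, 122 and 98.9 CPM in 786-O-Su and 73.5, 71.0 and 70.3 CPM in those labelled A498-Su. The parental lines overlapped, with a 95% interval of -0.15 to 0.14 for their log2 difference, and both lay above every resistant library. LIF fell by 0.80 ± 0.07 on the log2 scale in 786-O-Su against 786-O (adjusted p = 7.3e-08). The same change in the libraries labelled A498-Su was -1.37 ± 0.07 against A498 (adjusted p = 1.3e-10) and -1.37 ± 0.07 against 786-O (adjusted p = 3.1e-10), nearly the same against either parental line. With GC and length trends removed these were -1.18 and -1.34, and the parental lines were called different (0.16, adjusted p = 0.03).

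IL6 and LIF accordingly changed their balance in 786-O-Su. The ratio of IL6 to LIF in CPM was 0.166 to 0.175 over the libraries of 786-O and 0.389 to 0.56 over those of 786-O-Su. In A498 it was 0.176 to 0.202, and in the libraries labelled A498-Su 0.17 to 0.21, which overlapped. In the latter both ligands were lower by about the same factor, 2.61-fold for IL6 and 2.59-fold for LIF.

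IL11, a ligand with roles in bone, platelets and fibrosis, was the least abundant of the 3 ligands. The libraries held 5.37, 5.51 and 5.10 CPM in 786-O, 1.61, 3.00 and 2.08 CPM in 786-O-Su, 1.39, 0.883 and 1.10 CPM in A498 and 4.62, 2.97 and 3.72 CPM in those labelled A498-Su, from 19 to 230 counts. All 786-O libraries were above all others, and all A498 libraries below. The log2 fold change was -1.26 ± 0.19 in 786-O-Su against 786-O (adjusted p = 3.6e-05), opposite in sign to that of IL6 in the same cells. The libraries labelled A498-Su were higher than A498 by 1.72 ± 0.25 (adjusted p = 1.5e-05) and lower than 786-O by a log2 fold change of -0.49 ± 0.20 (adjusted p = 0.041). The second call was lost in 7 other settings and on leaving out any of 7 libraries, with -0.32 (adjusted p = 0.21) without A498-Su replicate 2 at one end and -0.52 (adjusted p = 0.062) without 786-O replicate 3 at the other; the remaining 5 are A498 replicate 3, A498-Su replicate 3, 786-O replicates 1 and 2 and 786-O-Su replicate 3.

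The promoters of IL6 and IL11 are shown because these ligands moved in opposite directions in 786-O-Su. RefSeq start sites on GRCh38.p14 were given for 9 of the 10 genes, in 14 windows, and LIF had no entry. Letters were searched on both strands in the 250 bases before each start: TTCNNNGAA for STAT factors, GGANTTTCC for NF-kB, TGANTCA for AP-1 and TTGCNCAA for C/EBP. Capitals mark the matches. The IL6 window, chr7:22726950-22727146 (plus strand), is printed only up to the next annotated exon, and in GENCODE it lies inside the gene, in the first intron of a transcript that starts further upstream. The IL11 window is chr19:55370464-55370713 (minus strand).
IL6: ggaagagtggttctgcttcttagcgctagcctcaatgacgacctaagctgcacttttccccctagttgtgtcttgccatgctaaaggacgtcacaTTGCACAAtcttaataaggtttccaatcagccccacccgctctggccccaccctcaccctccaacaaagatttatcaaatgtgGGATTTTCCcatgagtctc
IL11: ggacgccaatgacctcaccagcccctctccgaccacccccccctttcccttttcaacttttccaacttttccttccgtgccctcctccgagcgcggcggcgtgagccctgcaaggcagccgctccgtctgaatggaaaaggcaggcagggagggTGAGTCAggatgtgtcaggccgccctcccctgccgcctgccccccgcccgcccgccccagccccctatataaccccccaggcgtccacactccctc

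The IL6 window held 1 match to the C/EBP letters, 155 to 148 bases before the start, and 1 match to the NF-kB letters, 72 to 64 bases before it. The IL11 window held 1 match to the AP-1 letters, 96 to 90 bases before its start. Of 35116 windows of all genes, 2.27% held the C/EBP letters, 1.45% the NF-kB letters, 6.57% the AP-1 letters and 6.57% the STAT letters. Among the other windows of the 10 genes only 2 of the 3 windows of LIFR held any match, 1 STAT match each. Neither SOCS3 window held the STAT letters. However, the window at chr17:78359668-78359917 lies inside the gene, and that at chr17:78360926-78361175 lies upstream and apart from it. The bases directly before the GENCODE start of SOCS3 (chr17:78360077, minus strand) were in neither window and were not searched. These are letter matches and say nothing about binding.

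Among the receptors, IL6R, the chain that lets a cell bind IL6 directly, had the largest rise of the 10 genes in 786-O-Su. Its libraries held 3.63, 3.41 and 4.06 CPM in 786-O and 10.1, 9.66 and 10.6 CPM in 786-O-Su. A498 held 8.92, 8.37 and 8.31 CPM and the libraries labelled A498-Su 7.72, 8.90 and 7.63 CPM, which overlapped. Thus 786-O was the group that stood apart, 2.74-fold below 786-O-Su. The log2 fold change was 1.45 ± 0.09 in 786-O-Su against 786-O (adjusted p = 4e-09). For the libraries labelled A498-Su it was 1.12 ± 0.10 against 786-O (adjusted p = 1.4e-07) and -0.08 against A498, with a 95% interval of -0.29 to 0.12 (adjusted p = 0.44).

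IL6ST encodes gp130, the chain that all ligands of the family share. It was counted at 150, 157 and 150 CPM in A498, 113, 109 and 113 CPM in the libraries labelled A498-Su, 108, 110 and 115 CPM in 786-O and 87.9, 72.5 and 81.5 CPM in 786-O-Su. A498 was highest, 786-O-Su lowest, and the groups between them overlapped. In 786-O-Su against 786-O the log2 fold change was -0.47 ± 0.06 (adjusted p = 6.5e-06), which shrank to -0.19 (adjusted p = 0.0017) once each library's trend with GC content and exon length was removed. Those labelled A498-Su differed from A498 by -0.44 ± 0.06 (adjusted p = 9.1e-06), or -0.71 (adjusted p = 2.1e-09) with those trends removed, and from 786-O by 0.01, with a 95% interval of -0.12 to 0.14 (adjusted p = 0.93). With IL6R higher and IL6ST lower, the ratio of IL6ST to IL6R in CPM per kilobase of exon went from 16.5 to 18.7 over 786-O libraries down to 4.35 to 5.04 over 786-O-Su libraries. It was 9.72 to 10.9 in A498 and 7.1 to 8.61 in the libraries labelled A498-Su.

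OSMR, which pairs with gp130 to bind oncostatin M, was the receptor chain with the highest level in the libraries labelled A498-Su. Those libraries held 197, 204 and 202 CPM, against 118, 117 and 117 CPM in A498, 155, 154 and 155 CPM in 786-O and 163, 197 and 158 CPM in 786-O-Su. The order was A498-Su, 786-O-Su, 786-O and A498, with the highest 786-O-Su library almost level with the lowest A498-Su library. Against A498 the log2 fold change of the libraries labelled A498-Su was 0.77 ± 0.07 (adjusted p = 4.2e-08) and against 786-O it was 0.38 ± 0.06 (adjusted p = 0.00011). The small difference between 786-O-Su and 786-O, 0.16 ± 0.06 (adjusted p = 0.036), rested on replicate 2, without which it was 0.06 (adjusted p = 0.17). That call was also lost on leaving out any 786-O library (0.15 to 0.16, adjusted p = 0.078, 0.094 and 0.083) or any A498 library (0.15 to 0.16, adjusted p = 0.055 to 0.057), and with only the compared groups fitted (0.20, adjusted p = 0.067), while scaling by library size alone gave 0.30 (adjusted p = 0.00045).

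LIFR, the chain that completes the LIF receptor, separated A498 from the rest. The libraries held 8.31, 9.90 and 8.20 CPM in A498, 23.5, 23.9 and 22.8 CPM in those labelled A498-Su, 22.6, 23.1 and 23.1 CPM in 786-O and 20.4, 12.7 and 19.4 CPM in 786-O-Su. Those of A498-Su and 786-O overlapped. Their log2 difference from A498 was 1.42 ± 0.14 (adjusted p = 3.4e-07), and that from 786-O was 0.03, with a 95% interval of -0.25 to 0.31 (adjusted p = 0.85). In 786-O-Su LIFR was lower than in 786-O by a log2 fold change of -0.39 ± 0.13 (adjusted p = 0.015), which was -0.20 (adjusted p = 0.0033) without 786-O-Su replicate 2. It missed the threshold with GC and length trends removed (-0.14, adjusted p = 0.29), scaled by library size only (-0.24, adjusted p = 0.12) and when fitted on these groups only (-0.35, adjusted p = 0.077).

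**Figure D2:**
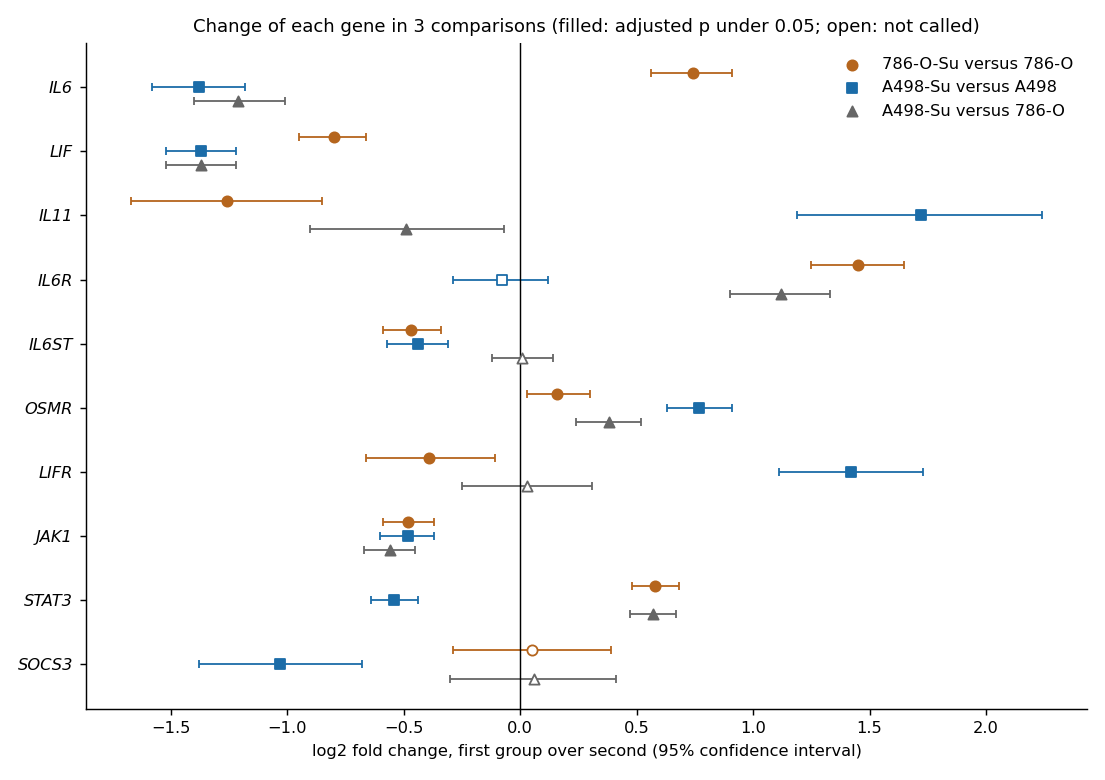
Log2 fold change of each of the 10 genes (vertical axis) with its 95% confidence interval, for 786-O-Su over 786-O, A498-Su over A498 and A498-Su over 786-O; filled symbols passed an adjusted p of 0.05. The symbols for IL11 and STAT3 in the libraries labelled A498-Su fall on opposite sides of 0 for the choice of parental line (1.72 and -0.49 for IL11, -0.54 and 0.57 for STAT3), whereas those for LIF coincide at -1.37.

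JAK1, the kinase that most receptors of the family depend on, was lower in both resistant cultures by a similar amount. It was counted at 351, 332 and 329 CPM in A498, 240, 242 and 242 CPM in the libraries labelled A498-Su, 351, 356 and 360 CPM in 786-O and 259, 232 and 272 CPM in 786-O-Su. Every resistant library lay below every parental one, and the resistant groups overlapped. The log2 fold change was -0.48 ± 0.05 in 786-O-Su against 786-O (adjusted p = 1.1e-06). Among the libraries labelled A498-Su it was -0.48 ± 0.05 against A498 (adjusted p = 8.1e-07) and -0.56 ± 0.05 against 786-O (adjusted p = 2.5e-07). The difference of the 2 changes was 0.00, with a 95% interval of -0.16 to 0.16 (adjusted p = 1).

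STAT3 lay at one level in both resistant groups, between those of the parental lines. The libraries held 114, 112 and 113 CPM in 786-O and 165, 162 and 179 CPM in 786-O-Su, against 255, 239 and 238 CPM in A498 and 166, 170 and 168 CPM in those labelled A498-Su. The resistant groups overlapped, and their log2 difference was -0.01, with a 95% interval of -0.11 to 0.09 (adjusted p = 0.89). STAT3 was higher in 786-O-Su than in 786-O by 0.58 ± 0.05 (adjusted p = 4e-08). The libraries labelled A498-Su were lower than A498 by a log2 fold change of -0.54 ± 0.05 (adjusted p = 5e-08) and higher than 786-O by 0.57 ± 0.05 (adjusted p = 5.7e-08). These mRNA values do not measure STAT3 phosphorylation.

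SOCS3, the feedback inhibitor and a classical STAT3 target, did not follow STAT3 in the 786-O lines. Its libraries held 14.6, 15.4 and 14.7 CPM in 786-O and 12, 21.7 and 12.6 CPM in 786-O-Su. A498 held 32.7, 31.5 and 30.8 CPM and the libraries labelled A498-Su 14.6, 15.9 and 16.1 CPM. A498 was above all other groups, which overlapped. In 786-O-Su against 786-O the log2 fold change was 0.05, with a 95% interval of -0.29 to 0.39 (adjusted p = 0.8), and without replicate 2, whose 949 counts compare with 589 and 578 in the other libraries of its group, it was -0.28 (adjusted p = 0.00036). Those labelled A498-Su differed from A498 by -1.03 ± 0.16 on the log2 scale (adjusted p = 4.4e-05) and differed from 786-O by 0.06, with a 95% interval of -0.30 to 0.41 (adjusted p = 0.78). The ratio of SOCS3 to STAT3 in CPM was 0.128 to 0.132 over A498 libraries and 0.128 to 0.138 over 786-O libraries. It was 0.088 to 0.0958 in the libraries labelled A498-Su and 0.0706 to 0.134 in 786-O-Su, where replicate 2 gave the highest value.

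Compared with each other per exon length, the 10 genes kept a broad order. This length merges all annotated exons of a gene over its transcripts, 3871 bases for LIF, 11208 for STAT3 and 13174 for JAK1. The order depends on that choice, and the lengths of the transcripts expressed here were not used. In CPM alone JAK1 was above LIF in every group, with means of 356 and 185 CPM in 786-O. The ligand LIF, the receptor chain OSMR, the kinase and the transcription factor were abundant, and IL6R, LIFR and IL11 scarce. By merged exon length, LIF had the highest level in A498 (48 ± 1.73 CPM per kilobase, SD, n = 3), in 786-O (47.9 ± 1.51) and in 786-O-Su (27.5 ± 3.36). OSMR was highest in the libraries labelled A498-Su (28 ± 0.479) and LIF followed (18.5 ± 0.439), close to JAK1 (18.3 ± 0.0723). IL6 held between 3.15 and 12.1 CPM per kilobase over the group means. IL11 was lowest in A498 (0.42 ± 0.0948) and in 786-O-Su (0.833 ± 0.263), and IL6R was lowest in 786-O (0.529 ± 0.047) and in the libraries labelled A498-Su (1.16 ± 0.102).

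**Figure D3:**
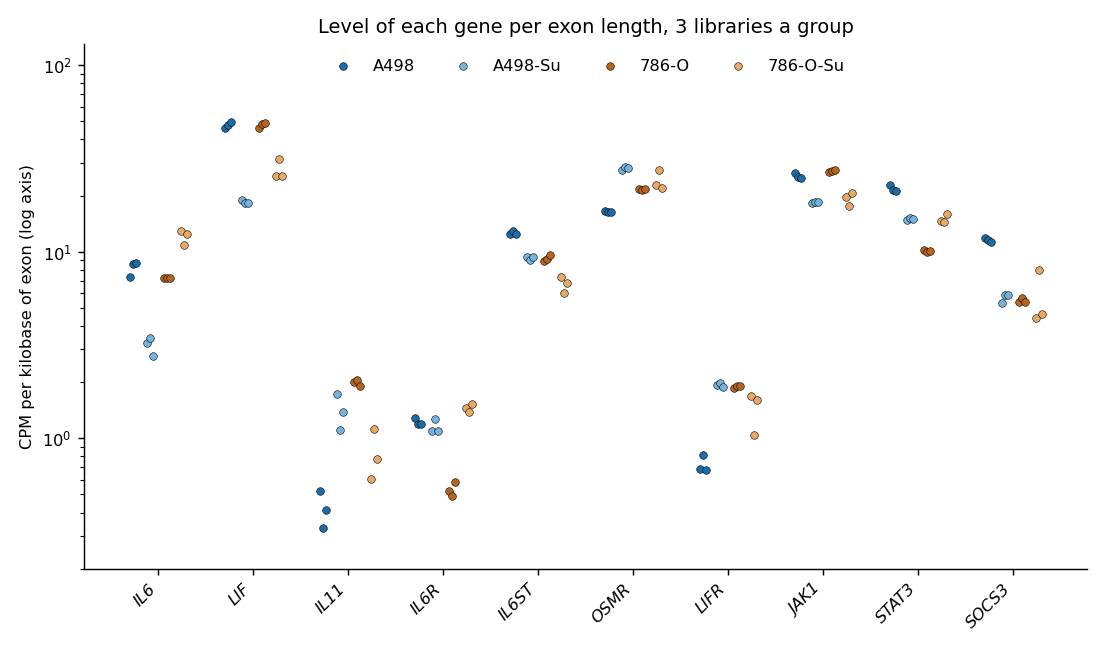
CPM per kilobase of exon (all annotated exons merged, log axis) of the 10 genes in the 12 libraries, with 1 point per library coloured by group. IL11, IL6R and LIFR lie below 2.1 in every library, while LIF, OSMR, JAK1 and STAT3 lie above 9.9.

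The loci carry these coordinates in GENCODE 44 on GRCh38. IL6 lies at chr7:22725884-22732002 (plus strand), LIF at chr22:30240453-30246759 (minus), IL11 at chr19:55364382-55370463 (minus) and IL6R at chr1:154405193-154469450 (plus). IL6ST spans chr5:55935095-55995022 (minus), and OSMR (chr5:38845858-38945596, plus) and LIFR (chr5:38474668-38608354, minus) share a stretch of the same chromosome. JAK1 lies at chr1:64833223-65067754, STAT3 at chr17:42313324-42388540 and SOCS3 at chr17:78356778-78360077, all on the minus strand. All are protein-coding genes, and the counts are summed over their exons. Reads were counted by strand, and the antisense or divergent transcripts at these loci held few counts, at most 95 per library for IL6-AS1, 45 for LIF-AS1, 337 for LIF-AS2, 26 for LIFR-AS1, 115 for OSMR-DT and 25 for SOCS3-DT. The processed copy IL6STP1 held no more than 2 counts in any library.

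The parental lines also differed. In 786-O against A498, 3 of the 10 genes were higher and 4 lower, where 74.2% of all genes were called (38.2% higher and 36.1% lower), and 9 of the 10 had libraries that did not overlap, against 80.2% of all genes. IL11 (log2 fold change 2.20 ± 0.23), LIFR (1.39 ± 0.14) and OSMR (0.39 ± 0.06) were higher in 786-O. IL6R (-1.20 ± 0.10), STAT3 (-1.11 ± 0.05), SOCS3 (-1.09 ± 0.16) and IL6ST (-0.45 ± 0.06) were lower. For IL6ST, LIFR and SOCS3 the change of the libraries labelled A498-Su from A498 (-0.44, 1.42 and -1.03) was of the same size as this difference between the lines (-0.45, 1.39 and -1.09). These comparisons share the A498 libraries.

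The resistant cultures differed from each other in 7 of the 10 genes (4 higher and 3 lower in the libraries labelled A498-Su), where 46.1% of all genes were called, 23.0% in each direction (higher 23.0%, lower 23.0%). Libraries did not overlap for 6 of the 10 genes, against 51.7% of all genes. In the libraries labelled A498-Su against 786-O-Su, IL6 was lower by 1.94 ± 0.09 on the log2 scale, that is with a log2 fold change of -1.94, and LIF (-0.57 ± 0.07) and IL6R (-0.33 ± 0.09) were lower as well. IL11 (0.78 ± 0.21), IL6ST (0.47 ± 0.06), LIFR (0.42 ± 0.13) and OSMR (0.22 ± 0.06) were higher. LIFR was 0.23 (adjusted p = 0.0027) without 786-O-Su replicate 2, and without that library SOCS3 (0.33, adjusted p = 0.00015) and JAK1 (-0.14, adjusted p = 0.0028) passed the threshold too. Without A498-Su replicate 1 IL11 missed it (0.61, adjusted p = 0.056), as it did with thinned counts (0.63, adjusted p = 0.055). With only these groups fitted LIFR (0.41, adjusted p = 0.065) and OSMR (0.21, adjusted p = 0.075) missed it. With GC and length trends removed both missed it too, at 0.10 (adjusted p = 0.54) and 0.14 (adjusted p = 0.11), IL6ST shrank to 0.13 (adjusted p = 0.032), LIF to -0.37 (adjusted p = 0.00049), and JAK1 passed it (-0.12, adjusted p = 0.029).

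Around these 10 genes, 65 further genes of the pathway were grouped by role into 6 lists, and 50 of them were tested. In 786-O-Su against 786-O, 20 were higher and 17 lower, where 35.0% and 33.5% of all genes were, with a median log2 fold change of 0.09 beside 0.03 for all genes. Compared with A498, 14 were higher and 25 lower in the libraries labelled A498-Su (36.3% and 36.4% of all genes), and compared with 786-O 22 were higher and 14 lower (31.6% and 32.1%). The counts of each list below are to be read beside these shares of all genes, and no count is taken as particular to a list. Each of the first 5 lists held genes that passed the test in both directions in 786-O-Su.

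**Figure D4:**
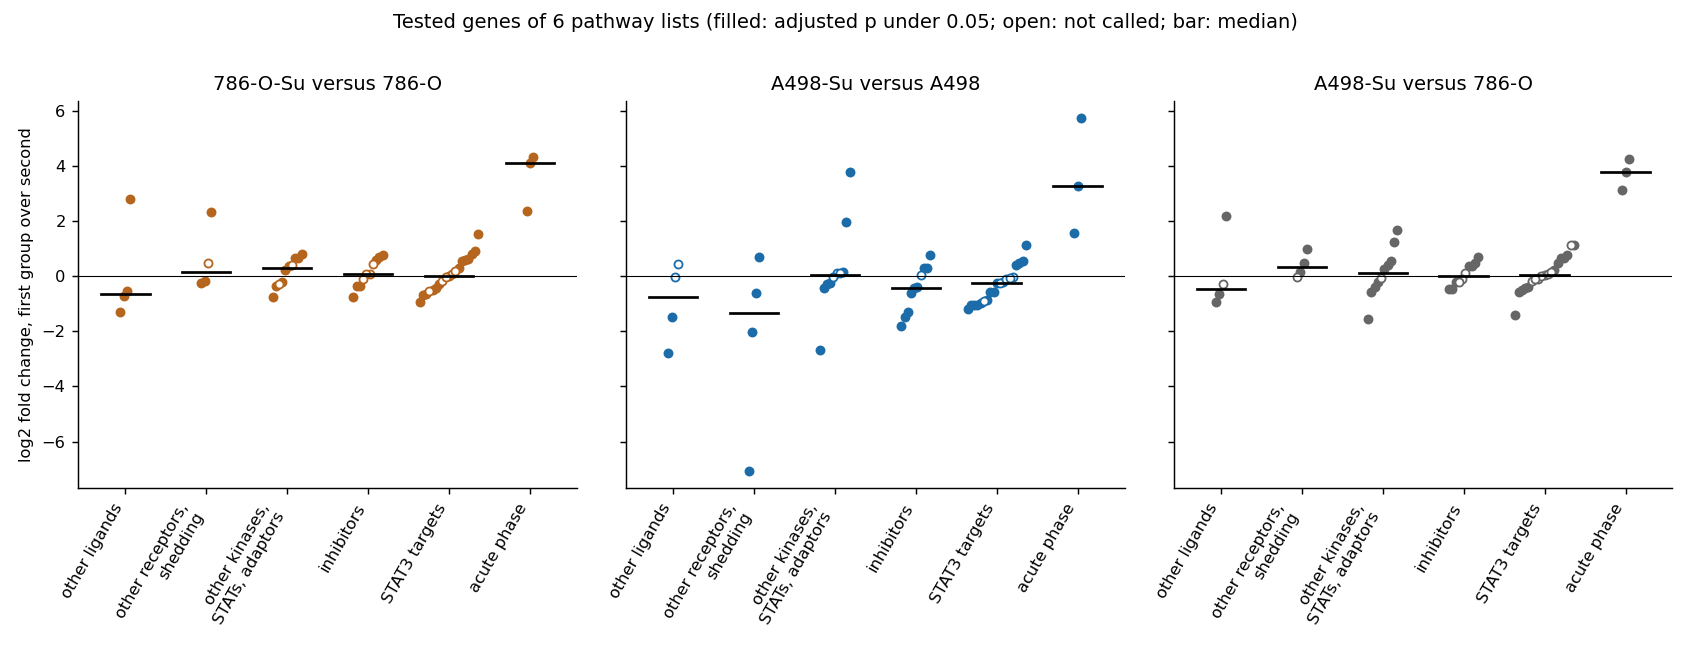
Log2 fold changes of the 50 tested genes of 6 pathway lists (horizontal axis) in 3 comparisons, 1 point per gene, filled where the adjusted p was under 0.05, with a bar at each list's median. The highest point in 786-O-Su against 786-O, at 4.35, is the acute phase gene SAA1 (10 of the 13 acute phase genes had too few reads to plot), and the lowest point, at -7.06 in the A498-Su against A498 panel, is IL27RA.

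Of 7 other ligands and ligand subunits, 4 were tested in 786-O-Su against 786-O, with 1 higher and 3 lower and a median of -0.63. EBI3, a subunit of the related cytokines IL27 and IL35, was higher by 2.83 ± 0.15 (adjusted p = 3.6e-10). It held 0.736, 0.724 and 0.843 CPM in 786-O and 4.72, 6.57 and 5.25 CPM in 786-O-Su, against 23.3, 25.1 and 24.6 CPM in A498 and 3.65, 3.21 and 3.64 CPM in the libraries labelled A498-Su. Its change in the latter was -2.79 ± 0.12 against A498 and 2.18 ± 0.17 against 786-O. The ligand subunit CLCF1 fell by 0.54 ± 0.10 in 786-O-Su (adjusted p = 0.00026) and CNTF by 1.29 ± 0.38 (adjusted p = 0.0064), the latter below the 5 CPM that the naming rule asks for and named after its values were seen. OSM, the ligand of OSMR, held no more than 7 counts in any library, and IL27 no more than 3.

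Of the other receptors and the proteases that shed them, 4 of 5 were tested. IL11RA, the specific receptor of IL11, was named after its values were seen, since it is under 5 CPM in every group. It held 0.605, 0.543 and 0.399 CPM in 786-O and 3.08, 1.79 and 2.93 CPM in 786-O-Su. It was thus higher by 2.34 ± 0.24 on the log2 scale (adjusted p = 5.7e-07), and the receptor of IL11 was higher where its ligand was lower. In A498, where IL11 was lowest, IL11RA was highest at 4.26, 4.00 and 4.27 CPM. The libraries labelled A498-Su, at 1.16, 0.718 and 1.17 CPM, were lower than A498 by -2.02 ± 0.23 and higher than 786-O by 1.01 ± 0.30. IL27RA, a receptor chain for IL27, was present in A498 at 45.2, 47.6 and 45.5 CPM and stayed under 1 CPM in every other library, including those labelled A498-Su. ADAM10, a protease that can release IL6R from the cell surface, was lower in 786-O-Su (-0.23 ± 0.07, adjusted p = 0.009), as was ADAM17 (-0.18 ± 0.05, adjusted p = 0.0035), the main such protease. ADAM10 was higher in the libraries labelled A498-Su, against A498 (0.70 ± 0.07) and against 786-O (0.50 ± 0.07), whereas ADAM17 was lower against A498 (-0.61 ± 0.05) and higher against 786-O (0.17 ± 0.05).

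All 10 other kinases, STATs and adaptors were tested, with 5 higher and 3 lower in 786-O-Su. TYK2, a kinase of the JAK family, held 80.0, 79.0 and 79.8 CPM in 786-O and 136, 108 and 134 CPM in 786-O-Su, and every resistant library was above every parental one. Its log2 fold change was 0.66 ± 0.07 (adjusted p = 6.8e-07). In the libraries labelled A498-Su it was 0.42 ± 0.07 against 786-O (adjusted p = 8.7e-05) and 0.12 ± 0.07 against A498 (adjusted p = 0.14), which did not pass the test. The phosphatase PTPN11, which links gp130 to the MAP kinase route, held 252, 267 and 269 CPM in 786-O and 165, 138 and 162 CPM in 786-O-Su, a log2 fold change of -0.76 ± 0.06 (adjusted p = 5.2e-08). The libraries labelled A498-Su lay between those of 786-O and A498, at 199, 197 and 200 CPM. The docking protein GAB1 was higher in 786-O-Su (0.68 ± 0.11), and in the libraries labelled A498-Su it was higher than in 786-O (1.26 ± 0.11) and lower than in A498 (-0.26 ± 0.10).

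The 10 inhibitors split evenly in 786-O-Su, with 3 higher, 3 lower and 4 not called, near the 35.0% and 33.5% of all genes. The phosphatase PTPN6 was higher (0.78 ± 0.08, adjusted p = 3.3e-07), as were SOCS2 (0.71 ± 0.12) and SOCS7 (0.59 ± 0.09), and SOCS5 was lower (-0.74 ± 0.06, adjusted p = 7.3e-08). Relative to A498, 3 were higher and 6 lower in the libraries labelled A498-Su, beside 36.3% and 36.4% of all genes. The latter included SOCS1 (-1.80 ± 0.19), CISH (-1.46 ± 0.18) and SOCS2 (-1.29 ± 0.12), all of which were also lower in 786-O than in A498 (-1.94 ± 0.18, -1.26 ± 0.16 and -1.67 ± 0.11). Against 786-O the same libraries had 4 inhibitors higher and 3 lower, led by PTPN6 (0.69 ± 0.08).

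Of 20 genes known as STAT3 targets, 19 were tested, and in 786-O-Su 7 were higher, 6 lower and 6 not called, near the shares of all genes, with a median of 0.03, the same as for all genes. KLF4, a transcription factor, was higher by 1.54 ± 0.07 (adjusted p = 1.1e-10), its libraries holding 18.3, 16.8 and 16.4 CPM in 786-O and 46.3, 54.7 and 48.2 CPM in 786-O-Su. ZFP36, which destabilises cytokine mRNAs, was higher by 0.91 ± 0.10 and the adhesion molecule ICAM1 by 0.81 ± 0.07, while the TNF receptor TNFRSF1A was lower (-0.94 ± 0.07). Against A498, 4 targets were higher and 10 lower in the libraries labelled A498-Su, with a median of -0.25, where 72.7% of all genes were called (36.3% higher and 36.4% lower). CCND1, the cyclin of early cell cycle entry, was higher (1.15 ± 0.06), and TNFRSF1A (-1.19 ± 0.07), BCL3 (-1.05 ± 0.14) and IER3 (-1.04 ± 0.09) were lower. Against 786-O, 6 were higher and 5 lower, with IER3 again lower (-1.42 ± 0.09) and KLF4 higher (1.15 ± 0.07). In this last comparison the count called rose from 11 to 17 without 786-O-Su replicate 2, while the share of all genes called rose from 63.6% to 69.2%.

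Acute phase genes, the liver programme that IL6 is best known for, were mostly near 0 counts: of 13, 10 had too few reads to be tested. SAA1, an acute phase apolipoprotein, held 7.23, 6.67 and 6.50 CPM in 786-O and 113, 189 and 112 CPM in 786-O-Su. In A498 the libraries held 13.6, 13.8 and 13.5 CPM and those labelled A498-Su 142, 130 and 125 CPM. Every resistant library was several-fold above every parental one. The log2 fold change was 4.35 ± 0.18 in 786-O-Su (20.3-fold, adjusted p = 2.9e-11), 3.28 ± 0.17 in the libraries labelled A498-Su against A498 (9.71-fold, adjusted p = 1.6e-10) and 4.28 ± 0.18 against 786-O (19.5-fold, adjusted p = 3.8e-11). The resistant groups were not called different in SAA1 (-0.06, 95% interval -0.37 to 0.25, adjusted p = 0.76). Their IL6 levels differed 3.85-fold, and a link between IL6 and SAA1 was not tested. SAA2, a close paralog whose reads may be divided unevenly with SAA1, was higher by 4.11 ± 0.26 in 786-O-Su and by 1.56 ± 0.27 against A498 and 3.14 ± 0.30 against 786-O in the libraries labelled A498-Su, always under 4 CPM. FGB was called higher in all 3 comparisons from no more than 26 counts in a library. CRP was at 0 counts in all 12 libraries.

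**Figure D5:**
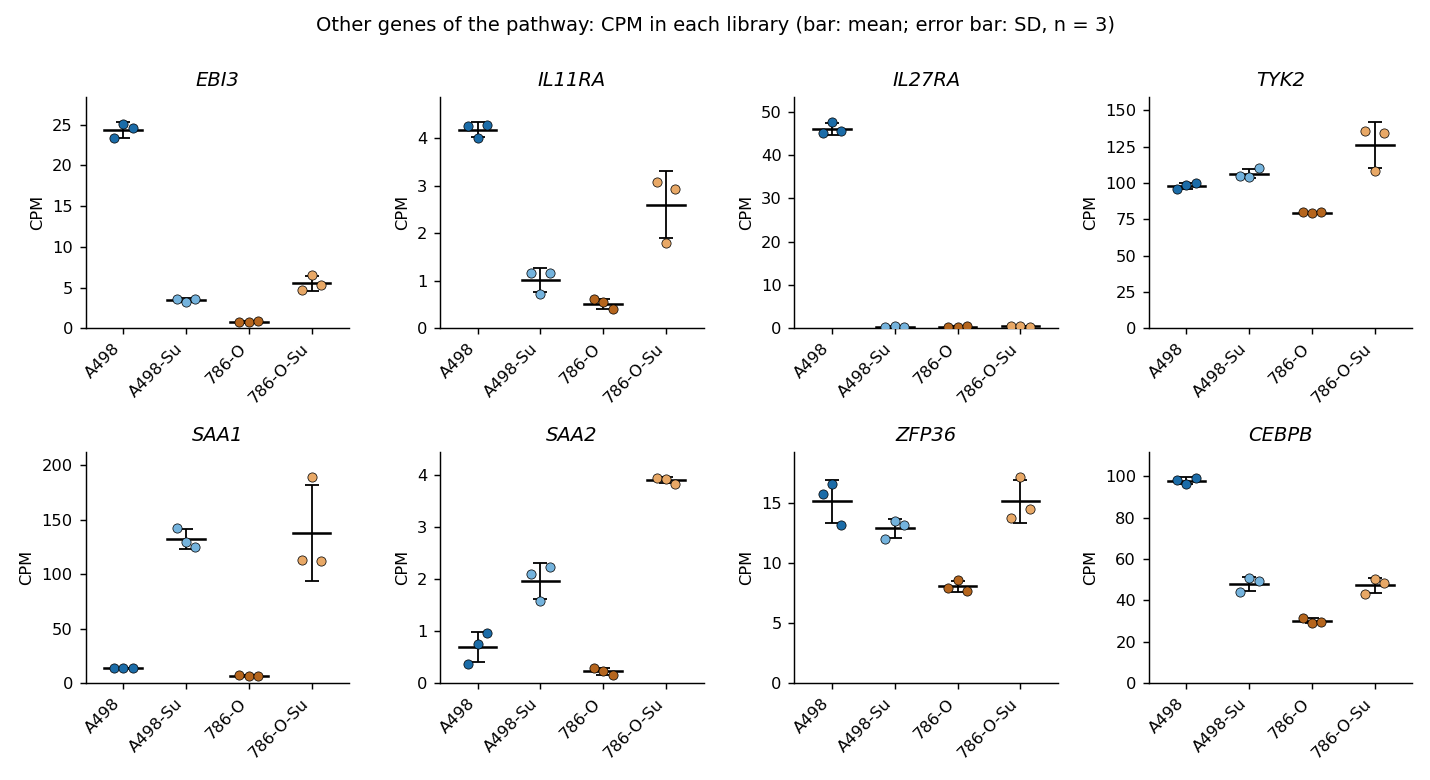
CPM of 8 other pathway genes in the 12 libraries, with the group on the horizontal axis, 1 point per library, a bar at the mean and an error bar of 1 SD (n = 3). SAA1 is above both parental lines in both resistant groups (112 to 189 CPM against 6.50 to 13.8 CPM), and IL27RA is above 1 CPM in A498 alone.

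The change itself differed between the lines for 8 of the 10 genes, in a test of the change in A498-Su against A498 minus the change in 786-O-Su against 786-O, for which 68.3% of all genes were called (33.9% higher and 34.4% lower). IL6ST (0.02, 95% interval -0.16 to 0.20, adjusted p = 0.83) and JAK1 were the exceptions, and for both the resistant groups were lower than their named parental line by nearly equal amounts. With GC and length trends removed, the difference for IL6ST was -0.52 (adjusted p = 3.6e-06). Since the libraries labelled A498-Su stood closer to 786-O and 786-O-Su than to A498, this test also carries the difference between the parental lines.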

How the data were processed

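The authors deposited raw counts per gene for 12 polyA libraries. According to the methods and the submitters' processing notes, reads were demultiplexed with bcl2fastq 2.19.0, trimmed with Trimmomatic 0.36.6, aligned to GRCh38 with HISAT2 2.1.0 and counted by strand over GENCODE 33 exons with featureCounts 1.6.3 at a mapping quality of at least 12.

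With edgeR 4.0.16 (R 4.3.3), filterByExpr left 19929 genes, libraries were scaled by TMM, and 1 quasi-likelihood model with 4 group means gave all comparisons. Adjusted p-values are Benjamini-Hochberg values over these genes, called under 0.05. The prior count for log2 fold changes was 0.125, and the SE is the unshrunk coefficient over the square root of F. The paper's own two-sample test was an alternative, because raw counts of unequal depth do not suit it. Other alternatives were DESeq2 1.42.0, other scalings and filters, a prior count of 2, thinning to the smallest library, removal of GC and length trends, a replicate block and leaving out each library. Levels are given as the 3 library values, and depth limits the genes with few counts. The code was tested on simulated data.

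The 10 genes, the pathway lists and the rule for naming genes were chosen with earlier results of these data known. All 10 genes are given, and from each list up to 4 called genes per comparison with the largest change among those with at least 5 CPM in the higher group; genes named outside the rule are marked, and some list members are not reported here. For likeness, the 5 genes with the smallest root mean square difference in centred log2 CPM were taken.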

Additional observations from a re-analysis of the deposited data

Results flagged for a closer look

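Of the 10 genes, 8 changed differently in the A498 and 786-O lines by the test of the difference itself. This difference was taken as the change in A498-Su over A498 minus the change in 786-O-Su over 786-O on the log2 scale. In the same test 68.3% of all genes were called, so a high count was not particular to these genes. IL11 (2.98 ± 0.31, SE), LIFR (1.80 ± 0.19) and OSMR (0.61 ± 0.09) had positive differences. IL6 (-2.12 ± 0.12), IL6R (-1.54 ± 0.13), STAT3 (-1.12 ± 0.07), SOCS3 (-1.08 ± 0.23) and LIF (-0.57 ± 0.10) had negative ones. The edgeR adjusted p-values ran from 8.8e-10 for IL6 to 0.00069 for SOCS3. The libraries labelled A498-Su resembled 786-O and 786-O-Su more than A498, and these differences also carry the difference between the parental lines. With 1 library left out, 786-O over A498 was -0.25 to -0.13 for IL6 and -0.02 to 0.03 for LIF. It was -1.13 to -1.07 for STAT3 and -1.10 to -1.06 for SOCS3. With the reported settings the parental lines were called different for all of these genes except IL6 and LIF. By construction, the difference of the changes is the parental difference plus that of A498-Su over 786-O-Su. With 1 library left out, the latter was -0.04 to 0.04 for STAT3 and -0.14 to 0.33 for SOCS3. It was 0.59 to 1.05 for IL11, 0.23 to 0.55 for LIFR, 0.17 to 0.32 for OSMR and -0.39 to -0.28 for IL6R. For the genes whose parental lines were called different, a change that differs with selection cannot be told apart from the parental difference. With GC and length trends removed the difference of the changes was -0.21 (adjusted p = 0.059) for LIF and -0.54 (adjusted p = 0.049) for SOCS3. Without 786-O-Su replicate 2 that for SOCS3 was -0.75 (adjusted p = 3.8e-09). No group reached the 4 libraries that a check for single outlying libraries needs.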

How the results depend on the processing

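Of the alternative log2 fold changes of the 10 genes, 1266 kept their direction and their side of the threshold, 36 no longer passed it, 16 newly passed it and 52 changed sign, the last in comparisons where the gene was not called with the reported settings. The paper's own two-sample test on raw counts, at an unadjusted p under 0.05, called 8211 genes (41.4%) in 786-O-Su against 786-O. It called 6222 genes (31.2%) in A498-Su against A498, with 4 of the 10 genes among them. In 786-O against A498 it also called 4 of the 10 genes, beside 55.6% of all genes. Its version on CPM, also unadjusted, called 4 of the 10 in A498-Su against 786-O-Su, beside 33.2% of all genes. Leaving out 1 library at a time gave 12626 to 14880 called genes in 786-O-Su against 786-O and 13884 to 15666 in A498-Su against A498. The causes were not tested. Depth limits IL11, with 19 to 230 counts, most.

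Sign changes are given by gene. For SOCS3 in 786-O-Su against 786-O the log2 fold change was -0.24 without GC and length trends, -0.26 with the replicate block added, and -0.28 to 0.23 with 1 library left out. For LIF in 786-O against A498 it was 0.05 with no filter, 0.16 without GC and length trends (adjusted p = 0.03, and 0.031 with the block), and -0.02 to 0.03 with 1 library left out. For JAK1 in 786-O against A498 it was -0.00 with library-size scaling. In A498-Su against 786-O, IL6ST was -0.01 with no filter, -0.06 without GC and length trends, with or without the block, and -0.02 to 0.05 with 1 library left out, and LIFR was -0.04 without those trends, with or without the block. In A498-Su against 786-O-Su, STAT3 was 0.00 with DESeq2 size factors, 0.02 without GC and length trends, with or without the block, 0.01 with DESeq2 and -0.04 to 0.04 with 1 library left out, and SOCS3 was -0.00 with no filter and with at least 10 counts everywhere, and -0.14 to 0.33 with 1 library left out. For the difference of the changes, IL6ST was -0.05 with library-size scaling, -0.02 with DESeq2 size factors, -0.06 with at least 10 counts everywhere, -0.52 without GC and length trends, with or without the block, -0.01 with DESeq2 and -0.04 to 0.10 with 1 library left out. JAK1 was -0.07, -0.04, -0.08, -0.06 and -0.03 under the same settings, -0.03 with thinned counts and -0.05 to 0.06 with 1 library left out.

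The replicate numbers did not pair the samples: deviations of same-numbered libraries from their group means correlated at -0.184 to 0.201. With the replicate block the counts were 13497 genes in 786-O-Su against 786-O and 14389 in A498-Su against A498, and among the 10 genes only IL11 in A498-Su against 786-O lost its call (-0.48, adjusted p = 0.057).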

Other observations

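Genes whose pattern over the 12 libraries was most like that of 4 of the genes were looked for among 3472 genes that vary by an SD of at least 0.5 log2. For IL6 they were MROH6 (root mean square difference of centred log2 CPM 0.219), TNFAIP3, an inhibitor of NF-kB signalling (0.249), MIR34AHG (0.253), CHST2 (0.312) and PLK3 (0.321). TNFAIP3 averaged 29.9 CPM in A498, 17.9 in A498-Su, 35.6 in 786-O and 65.1 in 786-O-Su. For LIF the closest was the tight junction gene CLDN1 (0.0835), which averaged 235, 88.2, 223 and 146 CPM in the same order of groups, followed by RXYLT1-AS1, NSUN5, NAA10 and C1orf56 (0.107 to 0.117). For SOCS3 they were ST3GAL1 (0.123), MGME1, PLPP1, STOM and S100A3 (up to 0.166). OSMR itself varies by less than that SD, so genes that vary as little as OSMR were outside the search. Within the search, those closest to OSMR were the Notch target HES1 (0.213), SMCO4, ZNF627, HECA and APLP2 (up to 0.234). The likeness is a description of 12 libraries in 4 groups. When 4 group means were used in place of 12 libraries, 2 of 5 genes were shared for each of LIF, OSMR and SOCS3.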
